A study of Sus scrofa with 37 samples.

Results

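COL1A1, COL1A2, COL3A1, DCN, LUM, PDGFRA, PDGFRB, FN1, SPARC and BGN were followed through pancreas and cultured islets of pigs, as a set of genes widely used to recognise fibroblasts and pancreatic stellate cells. The 10 genes were chosen by symbol through the Ensembl pig identifiers of the deposited count tables. The rule that picks them uses no measured value, but the set was chosen with earlier results of these data known. All 10 had a row in both tables, out of 25880 gene rows of which 14857 carried a symbol. The genes did not move as one. Over all libraries the fibrillar collagens, fibronectin and SPARC were higher in islets than in pancreas. Of the collagens only COL1A1 was higher in islets in all 16 animals counted in both tissues, and COL1A2 did not pass once samples were paired by animal. The small proteoglycans decorin and lumican and both PDGF receptors were lower in islets, and biglycan did not differ past the threshold over all libraries.

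Fibroblasts and stellate cells build the interstitial matrix of the pancreas. Type I collagen, a trimer of COL1A1 and COL1A2 chains, and type III collagen, made of COL3A1 chains, form its fibrils, and the small leucine-rich proteoglycans decorin, lumican and biglycan bind those fibrils and shape their assembly. Fibronectin links matrix to integrins on cells, SPARC is a collagen-binding matricellular protein, and PDGFRA and PDGFRB are receptors through which platelet-derived growth factors drive stromal cells to divide and migrate. Quiescent stellate cells of mammals store vitamin A, and once activated, as they readily are on culture plastic, they make much more collagen and fibronectin. None of these genes is private to one cell type: PDGFRB is also a gene of pericytes, and SPARC and FN1 are also made by endothelial cells.

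Each pancreas sample was a piece of about 50 mg from the duodenal lobe, collected at organ retrieval. Islets had been freed from the pancreas, purified and kept free-floating in culture for 7 days before RNA was prepared, so the tissue contrast joins isolation, purification and culture and these cannot be told apart. All libraries but 1 carry the label High or Low for islet density, with no statement of how density was scored and none of strain, sex or age. Counts were available for 8 High and 9 Low pancreas libraries and for 8 High islet libraries, 9 Low islet libraries and 1 islet library with no density label. The labels name no genotype, and no treatment other than the culture. Of the 37 samples listed, 2 islet samples are not analysed here. Animal codes tie 16 animals to a library of each tissue, and among the 15 of these with a label on both, 4 animals are High in one tissue and Low in the other. By these codes each group holds 1 library per animal.

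Depth was uneven, and this touches every result on pancreas. Islet libraries held 3237653 to 6702589 counts and High pancreas libraries 1855075 to 3922006, whereas 7 of the 9 Low pancreas libraries held only 265000 to 536014. In those 7 shallow libraries 3 counts, the number used here as the limit below which a gene is not reliably seen, equal 5.6 to 11.3 counts per 1000000 counts of the library (CPM), against 0.448 to 0.927 CPM in islets. Their summed acinar enzyme markers, over 11 genes, reached 12500 to 27800 CPM, against 97600 to 251000 CPM in the other 10 pancreas libraries, and 6 of the 7 come from animals whose code begins with 14, as do no other pancreas libraries. These limits cover counting error only. Among islets, the library with no density label stood apart: its 11 endocrine markers summed to 8390 CPM, against 54400 to 97400 CPM in the others, and it had the lowest CPM of COL1A2, COL3A1, LUM, FN1 and SPARC. Its scaling factor was 0.134, outside the 0.779 to 1.33 of the other islets. CPM and the per-animal comparisons below use no such factor, whereas the fold changes do, so these can place this library differently. That library and High islet replicate 1 have a source name that reads pancreas, although their titles say islets. The 17 labelled islet libraries all lay above the 280 to 15600 CPM that endocrine markers summed to in pancreas.

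**Figure D1:**
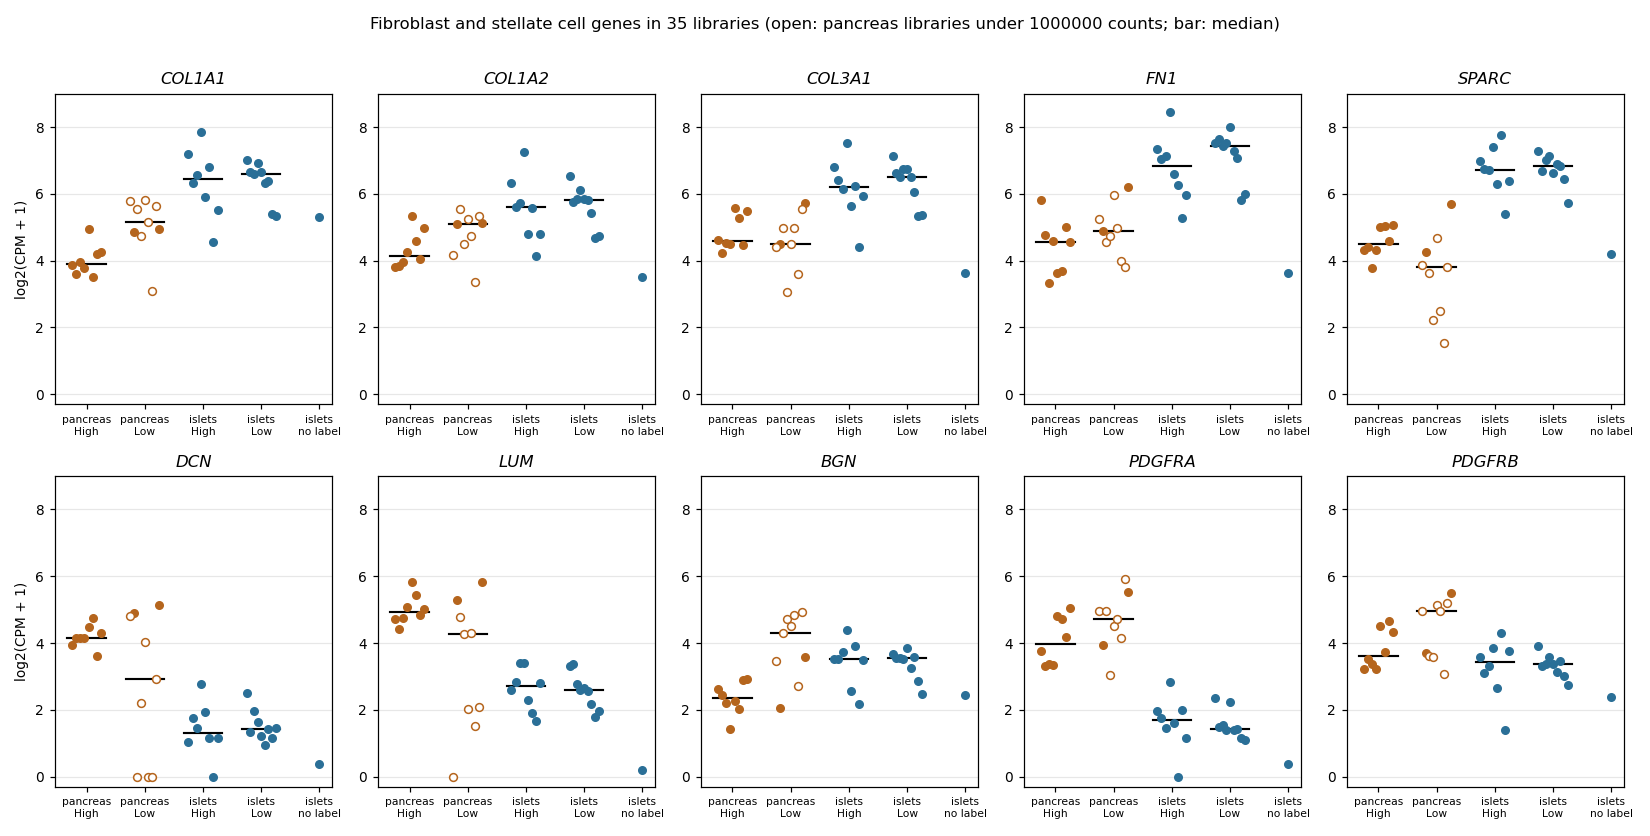
CPM of each of the 10 genes in all 35 libraries, on a log2(CPM + 1) axis, by tissue and density label. Each point is 1 library, open points are the 7 shallow pancreas libraries, and the bar is the group median. SPARC lies at 41.4 to 218 CPM in the 17 labelled islet libraries and PDGFRA at 0 to 6.1 CPM, below every pancreas library.

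Fold changes below are log2 values from edgeR's quasi-likelihood test on counts scaled by the trimmed mean of M-values (TMM), given with their SE and a p-value adjusted by Benjamini and Hochberg over all genes tested, with 0.05 as the threshold. Between islets (n = 18) and pancreas (n = 17), 9 of the 10 genes passed, 5 higher and 4 lower in islets. That share stands against a wide background, because 62.6% of the 12339 genes tested passed, 31.1% higher and 31.5% lower. The median log2 fold change of the 10 was 0.30, beside -0.01 over all genes. In bulk samples, fewer cells of a type and less RNA per cell cannot be told apart.

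COL1A1 (ENSSSCG00000036135), the chain present in 2 copies per type I collagen molecule, was higher in islets. It ran from 22.6 to 228 CPM in islets with a median of 87.7 CPM, and from 7.46 to 55.6 CPM in pancreas with a median of 25.5 CPM. The ranges overlapped, and 13 of 18 islet libraries lay above every pancreas library. Mean levels were 89.1 ± 48.7 CPM (SD, n = 18) and 26.9 ± 16.0 CPM (SD, n = 17), and the log2 fold change was 1.58 (SE 0.311, edgeR adjusted p = 2.78e-05). In all 16 animals counted in both tissues the islets were the higher sample.

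COL1A2 (ENSSSCG00000015326), the partner chain, moved less and less firmly. Islets ranged from 10.3 to 152 CPM with a median of 50.1 CPM, and pancreas from 9.33 to 45.3 CPM with a median of 22.9 CPM. Its log2 fold change of 0.62 (SE 0.239, edgeR adjusted p = 0.0228) did not survive the animal as a block, where it was 0.31 (adjusted p = 0.358), nor the loss of High islet replicate 4, the highest islet library, where it was 0.47 (adjusted p = 0.0664). Beyond leaving out single libraries, COL1A2 lost its call under 4 of 12 other settings, the block among them. Islets were the higher sample in 11 of 16 animals, and in 4 of the 9 animals whose pancreas library was not shallow.

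COL3A1 (ENSSSCG00000016034), the chain of type III collagen, which is laid down with type I in loose connective tissue, was also higher. It spanned 11.5 to 184 CPM in islets with a median of 79.4 CPM and 7.28 to 51.5 CPM in pancreas with a median of 22.1 CPM. The log2 fold change was 0.99 (SE 0.215, edgeR adjusted p = 1.17e-04), and 12 of 16 animals had the higher value in islets. In the 9 animals with a deeper pancreas library this held for 5.

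The glycoproteins FN1 and SPARC were higher as well.

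FN1 (ENSSSCG00000016174), fibronectin, had a median of 136 CPM in islets, with 11.3 CPM in the lowest and 349 CPM in the highest library. In pancreas its median was 25.5 CPM and its range 9.11 to 72.1 CPM. Apart from the islet library with no density label, which was the lowest, the islets began at 37.9 CPM, and 13 of 18 exceeded every pancreas library. The log2 fold change was 1.69 (SE 0.269, edgeR adjusted p = 7.8e-07), with islets higher in 15 of 16 animals.

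SPARC (ENSSSCG00000017082), also called osteonectin, was also higher. Its islet levels ran from 17.3 to 218 CPM with a median of 104 CPM, and its pancreas levels from 1.87 to 50.9 CPM with a median of 18.9 CPM. Within each density label the 2 tissues did not overlap, and 16 of the 18 islet libraries lay above every pancreas library. The log2 fold change was 1.93 (SE 0.239, edgeR adjusted p = 3.97e-09). By CPM islets were higher in 15 of 16 animals, the exception being the animal whose islets carry no density label. CPM take no scaling factor, and the factor of those islets was 0.134, beside 0.706 for the pancreas of the same animal. The exception may therefore not hold on scaled values. A RefSeq long non-coding gene overlaps the span of SPARC in assembly Sscrofa11.1, and whether the genes share exons was not examined. Without a stated strand setting, reads from any shared exon could not be told apart.

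Among the small leucine-rich proteoglycans, decorin and lumican were lower in islets and biglycan was not.

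DCN (ENSSSCG00000000915), decorin, which limits fibril width and binds TGF-beta, was near the limit of detection in islets. Islet libraries held 0 to 24 counts of it, or 0 to 5.86 CPM with a median of 1.61 CPM. The 10 deeper pancreas libraries held 11.3 to 34.5 CPM with a median of 17.7 CPM, so the 2 sets did not overlap, whereas the 7 shallow ones held 0 to 8 counts and 0 to 27 CPM. Over all libraries the log2 fold change was -3.58 (SE 0.307, edgeR adjusted p = 2.68e-13), and without the shallow libraries it was -3.82 (SE 0.246, adjusted p = 4.07e-15). Islets were lower in 13 of 16 animals, and in each of the other 3 the shallow pancreas library held 0 counts.

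LUM (ENSSSCG00000000916), lumican, the direct neighbour of DCN in the pig genome, went the same way. Islets lay between 0.149 and 9.67 CPM with a median of 5.02 CPM, and the 10 deeper pancreas libraries between 20.3 and 55.7 CPM with a median of 32.1 CPM. Again these 2 sets did not overlap, while the 7 shallow libraries spread from 0 to 26.4 CPM. The log2 fold change over all libraries was -2.97 (SE 0.259, edgeR adjusted p = 4.43e-13). All 9 animals with a deeper pancreas library had less LUM in islets, as did 12 of all 16.

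BGN (ENSSSCG00000012766), biglycan, the closest relative of decorin, gave a result that turned on the shallow libraries. Islets held 3.54 to 19.8 CPM with a median of 10.6 CPM, the deeper pancreas libraries 1.67 to 11.1 CPM with a median of 4.13 CPM, and the shallow ones 5.6 to 29.5 CPM with a median of 21.6 CPM from 3 to 12 counts each. Over all libraries the log2 fold change was -0.02 (SE 0.379, edgeR adjusted p = 0.97), and without the shallow ones it was 0.74 (SE 0.311, adjusted p = 0.0366), higher in islets. In the 9 animals with a deeper pancreas library BGN was higher in islets in 8.

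Both PDGF receptors were lower in islets, the alpha receptor far more than the beta receptor.

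PDGFRA (ENSSSCG00000008841), a receptor typical of fibroblasts, did not overlap between the tissues. All 18 islet libraries, at 0 to 6.1 CPM with a median of 1.77 CPM, lay below all 17 pancreas libraries, at 7.28 to 59.0 CPM with a median of 21.6 CPM. How many of all genes separate in this way was not counted, here or for the sets without overlap in SPARC, DCN and LUM. The log2 fold change was -3.82 (SE 0.263, edgeR adjusted p = 5.16e-16), and it was lower in islets in 16 of 16 animals. Islet libraries held 0 to 25 counts of it, so differences among single islet libraries are poorly resolved.

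PDGFRB (ENSSSCG00000022741), the receptor shared by stellate cells and pericytes, was lower by less. Its range was 1.63 to 18.8 CPM in islets with a median of 9.13 CPM, and 7.46 to 44.0 CPM in pancreas with a median of 12.2 CPM. The ranges overlapped widely. Its log2 fold change was -1.31 (SE 0.273, edgeR adjusted p = 6.6e-05), and 13 of 16 animals had the lower value in islets.

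With the islet library that has no density label left out, the same 5 genes were called higher and the same 4 lower, COL1A1 at 1.39, COL1A2 at 0.56, COL3A1 at 0.95, FN1 at 1.71, SPARC at 1.86, DCN at -3.61, LUM at -2.97, PDGFRA at -3.82 and PDGFRB at -1.46. With the 7 shallow libraries left out, all 10 passed: COL1A1 at 2.03, COL1A2 at 0.74, COL3A1 at 0.94, FN1 at 1.78, SPARC at 1.70 and BGN were higher, and DCN, LUM at -3.26, PDGFRA at -3.61 and PDGFRB at -1.12 were lower.

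**Figure D2:**
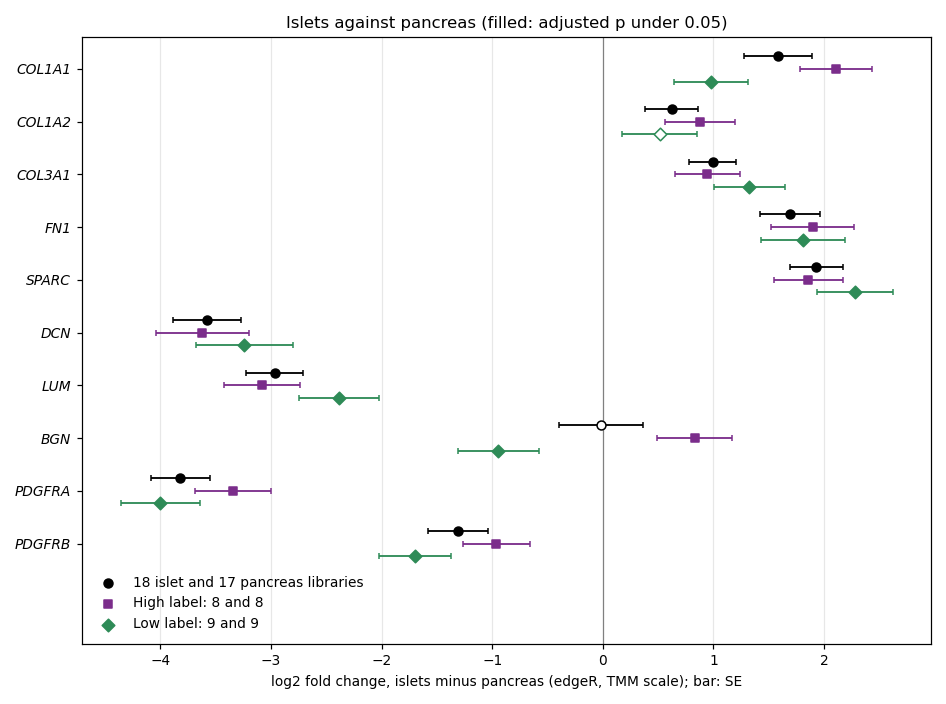
Log2 fold change of each gene between islets and pancreas, over all libraries and within each density label, with bars for the SE and filled symbols for an adjusted p under 0.05. COL1A1, COL3A1, FN1 and SPARC sit right of 0 and DCN, LUM, PDGFRA and PDGFRB left of it in all 3 fits, while BGN is at 0.83 in High and -0.94 in Low.

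Because the labels differ in depth, the tissue contrast was also fitted within each. Within High (8 islet and 8 pancreas libraries, none shallow), all 10 genes passed, 6 higher and 4 lower, where 53.4% of 14337 genes passed, 27.3% higher and 26.1% lower. Here COL1A1 reached 2.11 (SE 0.326, edgeR adjusted p = 5.61e-07) and BGN 0.83 (SE 0.339, adjusted p = 0.0357), with means of 10.8 ± 5.08 and 4.34 ± 1.68 CPM (SD, n = 8 each). With the animal as a block, 8 of the 10 still passed: COL1A2 was then at 0.49 (adjusted p = 0.252) and COL3A1 at 0.60 (adjusted p = 0.146). BGN lost its call when any of 4 single libraries was left out, High islet replicates 4 and 6 and High pancreas replicates 4 and 6, with values of 0.68 to 0.79 (adjusted p = 0.056 to 0.0873). COL1A2 lost its call without High islet replicate 4, at 0.53 (adjusted p = 0.116). Under the 11 other settings, COL1A2 and BGN each lost their call in 2, and COL3A1 and PDGFRB each in 1.

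Within Low (9 and 9 libraries), 9 genes passed, 4 higher and 5 lower, where 67.9% of genes passed, 32.8% higher and 35.2% lower. SPARC led the higher genes at 2.28 (SE 0.343, edgeR adjusted p = 2.56e-07) and PDGFRA the lower ones at -4.00 (SE 0.359, adjusted p = 2.22e-12), whereas COL1A2 stood at 0.51 (adjusted p = 0.178). BGN was lower there, at -0.94 (SE 0.369, adjusted p = 0.0226), with the shallow libraries in. When they were left out, 2 pancreas libraries remained, BGN was at 0.46 (adjusted p = 0.49), and COL3A1 at 1.22 and FN1 at 1.61 no longer passed (adjusted p = 0.0847 and 0.0747), which left COL1A1 and SPARC as the higher genes that did. BGN also lost its call without Low pancreas replicate 6, at -0.77 (adjusted p = 0.0772). Of the 11 other settings, the fit without the shallow libraries reversed BGN, and under 5 more it lost its call. Among these 5 were no count filter at -0.35, limma-voom at -0.56 and library totals at -0.62. With the animal as a block DCN moved from -3.24 to -1.90 and LUM from -2.38 to -1.70, both still past the threshold.

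**Figure D3:**
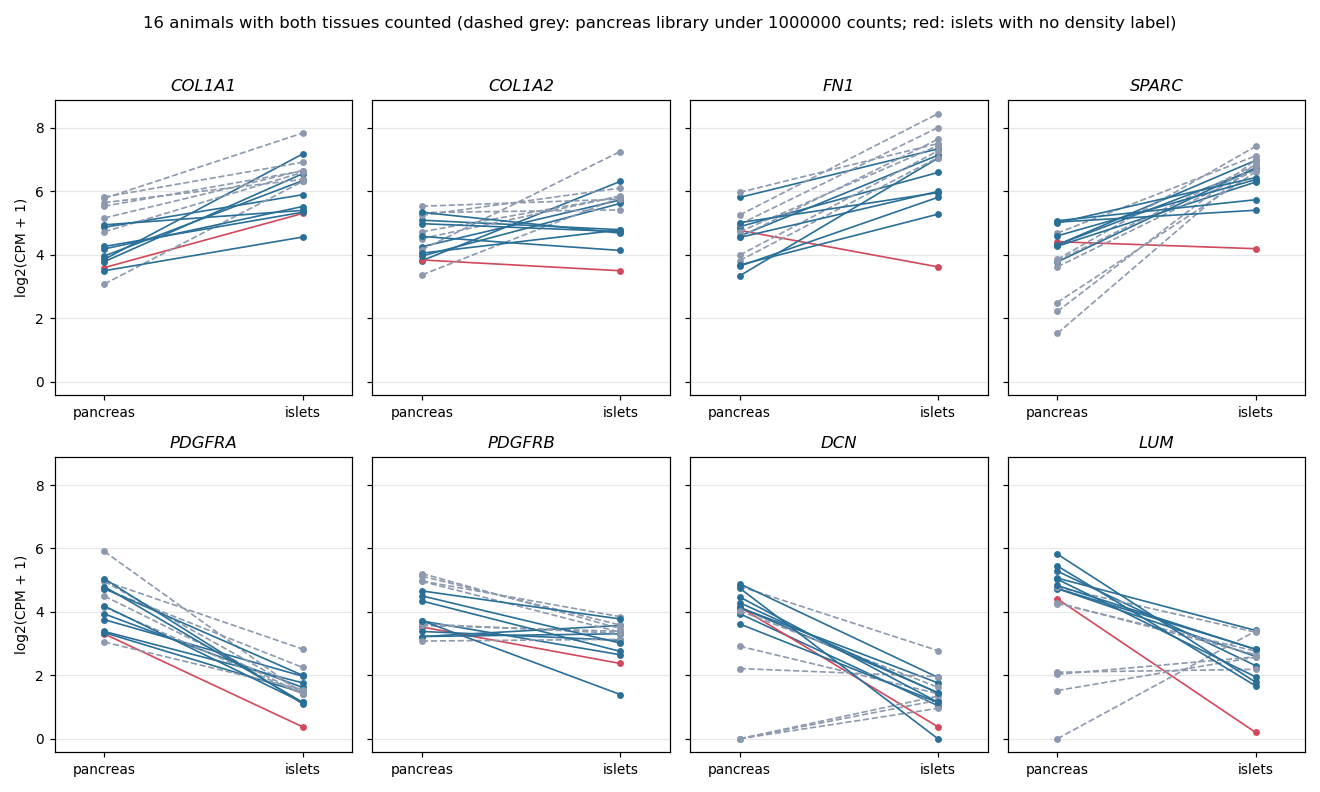
CPM of 8 genes in pancreas and islets of the same animal, on a log2(CPM + 1) axis, 1 line per animal for the 16 animals counted in both tissues. PDGFRA falls in all 16 and COL1A1 is higher in islets in all 16, and the lines of DCN and LUM that go up start at shallow pancreas libraries, drawn dashed.

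Ratios of 2 genes within a library need no total and no scaling factor, but at low counts they depend on depth. The pairs were picked after the values were seen, and the ratios, taken on counts with 0.5 added, are a description. SPARC to DCN separated the tissues completely, at 26.5 to 305 in islets with a median of 60.3 and at 0.529 to 7 in pancreas with a median of 1.47. The highest value of each tissue comes from a library with 0 counts of DCN, where the 0.5 sets it. PDGFRB to PDGFRA had a median of 4.63 in islets and 0.91 in pancreas, and 17 of 18 islet libraries lay above the highest pancreas value of 1.53. The 2 chains of type I collagen also shifted against each other: COL1A1 to COL1A2 was 1.36 to 3.72 in islets and 0.455 to 1.1 in the 10 deeper pancreas libraries, with no overlap, although shallow libraries reached 3. BGN to DCN was 1.71 to 27 in islets against 0.107 to 0.581 in the deeper pancreas libraries, but the shallow ones spread from 0.412 to 25, over most of the islet range. Each of these differences is one of counts of the same 2 genes across libraries and says nothing of which gene of a pair is the more abundant per transcript length.

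Other genes of the same pathways were read from lists chosen with earlier results of these data known. Of 20 partners and processing enzymes of the collagens 17 were tested, and 5 were higher in islets and 5 lower, with a median of 0.31. COL5A1, a chain of the type V collagen that nucleates type I fibrils, was at 1.35 (SE 0.414, edgeR adjusted p = 0.00468), and COL6A2, of the beaded type VI collagen, at 1.27 (SE 0.285, adjusted p = 1.76e-04). COL14A1, a fibril-associated collagen, was lower, from a mean of 127 CPM in pancreas to 49.5 CPM in islets (-1.93, SE 0.152, adjusted p = 2.32e-14), and so was PCOLCE, an enhancer of procollagen cleavage, at -0.93 (SE 0.219). Both shares are close to those of all genes tested.

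Of 18 proteoglycans and matricellular genes tested of 22 listed, 2 were higher and 8 lower, and their median was -0.45. PRELP, a leucine-rich proteoglycan, went from 18 to 0.257 CPM on average (-6.50, SE 0.333, edgeR adjusted p = 6.97e-20), and MGP, an inhibitor of calcification, from 20.0 to 2.11 CPM (-3.88, SE 0.364). POSTN, periostin, and FBN1, the core of microfibrils, were the 2 higher genes, at 0.95 (SE 0.236) and 0.62 (SE 0.146).

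The PDGF ligands were lower too. Of the 4 tested, 3 passed, all of them lower, as both receptors were: PDGFA, the main ligand of the alpha receptor, went from 38.4 to 9.67 CPM (-2.55, SE 0.216, edgeR adjusted p = 1.89e-13), and PDGFC, another alpha receptor ligand, was at -1.47 (SE 0.229).

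Receptors for collagen and fibronectin split evenly, with 5 of 12 higher and 6 lower. ITGB1, the common beta chain, rose from 65.7 to 339 CPM (1.74, SE 0.273, edgeR adjusted p = 6.05e-07) and ITGA4, an alpha chain that binds fibronectin, from 8.2 to 83.0 CPM (2.67, SE 0.232). DDR2, a collagen receptor of mesenchymal cells, was lower at -2.11 (SE 0.224), as was ITGB3 at -2.06 (SE 0.44). Matrix proteases and inhibitors had 3 of 7 tested genes past the threshold, all higher, led by MMP9, a gelatinase, at 1.71 (SE 0.454). In the TGF-beta pathway 1 of 12 was higher, the receptor TGFBR1 at 1.80 (SE 0.202), and 8 were lower, among them TGFBR2 at -1.79 (SE 0.205) and SMAD3 at -1.61 (SE 0.167).

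Of the genes linked to the state of the cell, few passed the count filter in the fit over all libraries. Of 12 genes of activated stellate and contractile cells only 4 were tested, 1 higher and 3 lower: VIM was at 0.57 (SE 0.207, edgeR adjusted p = 0.0151), while ACTA2, the smooth muscle actin used to score stellate activation, went from 16.4 to 5.33 CPM (-2.09, SE 0.319, adjusted p = 3.41e-07), and TPM2 was at -1.29 (SE 0.249). Of 16 resting stellate and fibroblast identity genes 5 were tested and 4 were lower, with C7 at -6.32 (SE 0.374) and DPT at -6.11 (SE 0.407). C7, a complement gene of matrix fibroblasts, averaged 28.2 CPM in pancreas and 0.519 CPM in islets, and DPT, dermatopontin, 11.2 and 0.192 CPM. The fit by density label tested more of them: of 10 activated and contractile genes 6 were lower within High, and 9 lower and 1 higher within Low, and of 8 resting and identity genes 6 were lower within High and 7 within Low.

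**Figure D4:**
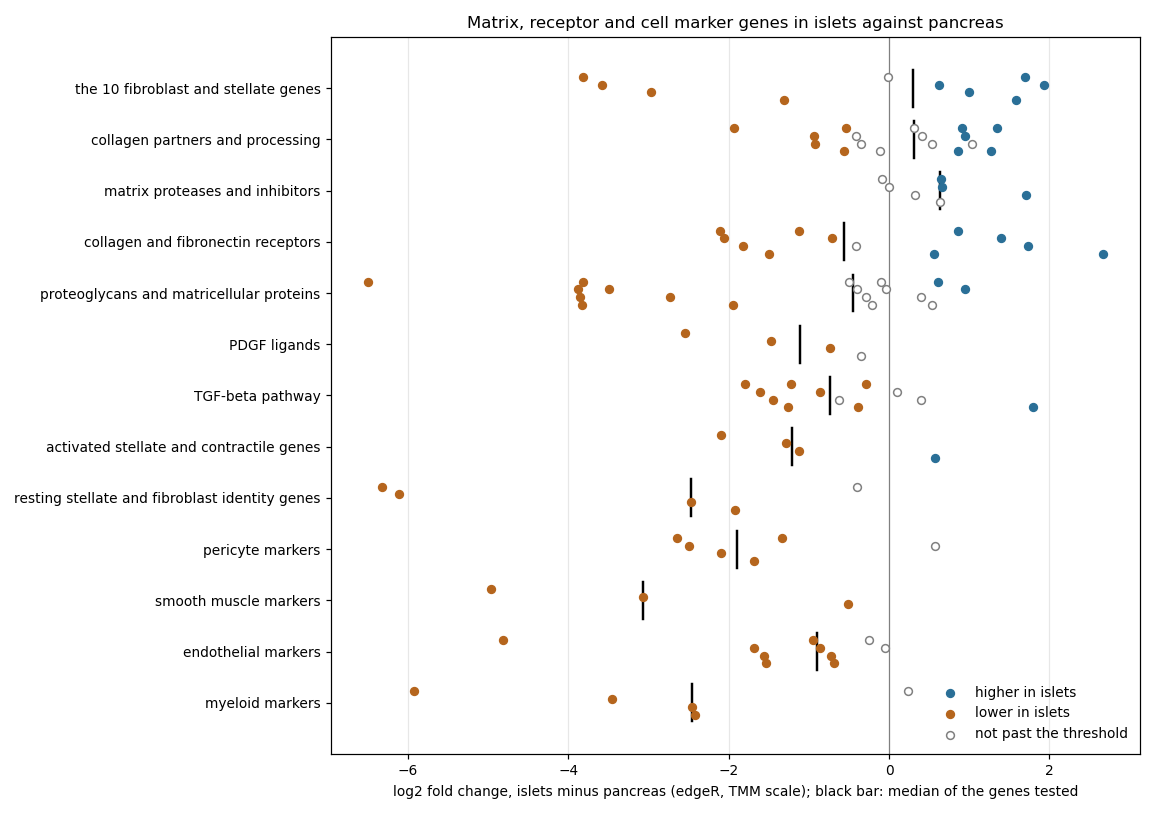
Log2 fold change between islets and pancreas for the genes tested in each list, with filled points past the threshold and a black bar for the list's median. The 10 genes straddle 0 (median 0.30), and the medians of the resting stellate and fibroblast genes, pericyte markers, smooth muscle markers and myeloid markers all lie under -1.5.

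Most markers of other stromal cells were lower in islets, the direction of DCN, LUM and the PDGF receptors and opposite to that of the collagens, FN1 and SPARC, and their part in the results was not tested. The 6 pericyte markers summed to 8.8 to 119 CPM in islets and 61.8 to 318 CPM in pancreas, and the 5 of 6 that passed were all lower. Means of RGS5 over the islet and the pancreas libraries were 16.9 ± 7.99 and 49.1 ± 52.9 CPM (SD, n = 18 and 17), and those of ABCC9 were 10.6 ± 4.31 and 24.9 ± 12.2 CPM. The 6 smooth muscle markers summed to 4.92 to 63.9 CPM and 85.9 to 483 CPM, with all 3 tested lower. SMTN carried most of that gap, at 4.98 and 118 CPM on average, while SYNPO2 averaged 28.6 and 26.3 CPM. Endothelial markers, 10 of 12 with a row, summed to 41.3 to 387 CPM in islets and 87.3 to 533 CPM in pancreas. Over all libraries the 8 of 10 that passed were all lower, with PLVAP at 65.4 and 83.4 CPM and PECAM1 at 48.4 and 55.0 CPM on average. By label they were less uniform: 8 of 10 were lower within High, but within Low 4 were lower, 1 higher and 5 did not pass. Their sums had medians of 234 CPM in Low islets and 172 CPM in Low pancreas.

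The 9 myeloid markers summed to 7.76 to 47.5 CPM in islets and 38.8 to 242 CPM in pancreas, with 4 of 5 tested lower, ITGAM at 3.2 and 32.1 CPM and CD163 at 0.73 and 30.5 CPM. Adipocyte markers summed to 0.298 to 9.06 CPM in islets and 18.9 to 159 CPM in pancreas, the 1 tested being lower, with FABP4 at 0.475 and 33.8 CPM and LIPE at 3.76 and 5.36 CPM. Schwann markers, 5 of 6 with a row, overlapped at 2.39 to 76.9 and 4.44 to 59.0 CPM, with 1 of 3 higher and 1 lower, and SOX10 averaged 6.44 and 11.8 CPM. The 2 mesothelial markers with a row, CALB2 and WT1, were low in both tissues, at 0.475 and 0.42 CPM in islets and 3.89 and 1.96 CPM in pancreas, and neither was tested.

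Parenchymal markers are part of the library total on which CPM rest, and how far they shift CPM was not tested. Acinar markers, 11 of 15 with a row, summed to 5.37 to 545 CPM in islets, with all 11 lower, CPA1 at 31.0 and 29500 CPM and PNLIP at 5.93 and 21700 CPM on average. Duct markers, 8 of 10 with a row, summed to 20.9 to 490 CPM in islets and 433 to 4110 CPM in pancreas, with 2 of 8 higher and 5 lower, SLC4A4 at 17.6 and 1210 CPM and TFF2 at 0.887 and 695 CPM. Endocrine markers were higher in islets in 11 of 11, INS at 36800 and 874 CPM and CHGA at 10700 and 262 CPM. With library totals in place of TMM factors, the median of all genes moved to 0.47, and against that shift COL1A1 stood at 1.79, SPARC at 2.35 and PDGFRA at -3.38, all still past the threshold.

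The study's labels also set High against Low islet density. In pancreas, 3 of the 10 genes passed, all lower in High, where 40.3% of 10634 genes passed, 18.8% higher and 21.5% lower. BGN ran from 1.67 to 6.54 CPM in High and from 3.13 to 29.5 CPM in Low, COL1A1 from 10.3 to 29.8 and from 7.46 to 55.6 CPM, and PDGFRB from 8.33 to 24.3 and from 7.46 to 44.0 CPM. BGN averaged 4.34 ± 1.68 CPM in High (SD, n = 8) and 17 ± 9.83 CPM in Low (SD, n = 9), a log2 fold change of -1.96 (SE 0.446, edgeR adjusted p = 0.00173). COL1A1 averaged 15.9 ± 6.25 and 36.6 ± 15.8 CPM (-1.17, SE 0.299, adjusted p = 0.00395), and PDGFRB 14.2 ± 6.46 and 24 ± 13.6 CPM (-0.79, SE 0.311, adjusted p = 0.0457). Values overlapped between the labels for each: 7 of 9 Low libraries exceeded every High library in BGN, and 5 of 9 did so in COL1A1 and in PDGFRB.

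None of these 3 results was called without the shallow libraries. With the 8 High and the 2 deeper Low libraries alone, edgeR called 0 of the 10 genes and 0 had an unadjusted p under 0.05, with BGN at -0.19 (SE 0.491, adjusted p = 0.929), COL1A1 at -0.37 (SE 0.327, adjusted p = 0.768) and PDGFRB at -0.47 (SE 0.386, adjusted p = 0.75). In that fit 1222 of 13217 genes had an unadjusted p under 0.05 and 0 passed after adjustment. PDGFRB also lost its call when any of 12 single libraries was left out and under 10 of 12 other settings, relative log expression scaling among them at -0.77 (adjusted p = 0.0514). Depth and density label are nearly the same split here and cannot be told apart with 2 deeper Low libraries. The other 7 genes did not pass: COL3A1 was at 0.14 (SE 0.276), DCN at 0.35 (SE 0.411), LUM at 0.72 (SE 0.382), SPARC at 0.52 (SE 0.316), COL1A2 at -0.46 (SE 0.274), FN1 at -0.51 (SE 0.359) and PDGFRA at -0.66 (SE 0.322). Without Low pancreas replicate 9, the highest of the deeper libraries for 8 of the 10 genes, LUM at 0.96 (adjusted p = 0.045) and SPARC at 0.89 (adjusted p = 0.0228) passed as higher in High. PDGFRA passed as lower without Low pancreas replicate 2, at -0.87 (adjusted p = 0.0224), and FN1 without High pancreas replicate 1, at -0.81 (adjusted p = 0.0446).

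Related genes in pancreas showed the same mixture, on the same shallow libraries. Collagen partners gave 1 higher (PLOD2, a collagen lysyl hydroxylase, 0.86, SE 0.304) and 6 lower of 17, led by COL16A1 at -2.46 (SE 0.389, edgeR adjusted p = 8.62e-05). Proteoglycans and matricellular genes gave 1 higher (SPON1, 1.22, SE 0.256) and 6 lower of 19, led by ELN, elastin, at -3.67 (SE 0.583). PDGFD, a ligand of the beta receptor, was higher at 1.0 (SE 0.378) and PDGFB lower at -1.28 (SE 0.449), the others of the 4 ligands not passing. Receptors gave 2 higher and 4 lower of 12, with ITGB1 at 1.34 (SE 0.375) and ITGB3 at -2.07 (SE 0.515). Proteases gave 1 higher, TIMP3 at 1.27 (SE 0.364), and 3 lower of 7, led by MMP9 at -3.14 (SE 0.674).

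The TGF-beta pathway gave SMAD4 higher at 1.34 (SE 0.36) and 5 lower of 13, led by LTBP2 at -3.18 (SE 0.543). Of 7 activated and contractile genes the 3 that passed were all lower, led by MYL9 at -2.45 (SE 0.476), and of 6 resting stellate and fibroblast genes the 2 that passed were both higher, led by FABP4, also an adipocyte marker, at 1.56 (SE 0.511). Beside them, all 11 acinar markers and 6 of 8 duct markers were higher in High, 4 of 7 myeloid markers, 3 of 5 smooth muscle markers and 1 of 5 pericyte markers were lower, and 3 of 9 endothelial markers were higher. Of 11 endocrine markers 3 were lower, as was 1 of 2 Schwann markers, and of 2 adipocyte markers 1 was higher and 1 lower. Over the Low libraries myeloid markers summed to 85.8 to 242 CPM, over the High ones to 38.8 to 193 CPM. What part these have in the results was not tested.

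In islets none of these genes passed for the islet sample's own density label. Of the 10, 8 were tested and edgeR called 0, as it called 0 of all 12070 genes (0%), with 257 genes at an unadjusted p under 0.05 and none of the 8 among them. DESeq2 and limma-voom also called 0 of the 8, and no gene of the lists above was called. The lowest unadjusted p was 0.385, for BGN at 0.25 (SE 0.287), with means of 10.8 ± 5.08 CPM in High (SD, n = 8) and 9.75 ± 2.78 CPM in Low (SD, n = 9). COL1A1 was at 0.31 (SE 0.38), SPARC at 0.29 (SE 0.329), PDGFRB at 0.24 (SE 0.333), COL1A2 at 0.20 (SE 0.376), LUM at 0.16 (SE 0.284), COL3A1 at 0.03 (SE 0.34) and FN1 at -0.16 (SE 0.382). When islets were grouped by the label of their animal's pancreas instead, edgeR again called 0, all 8 genes were lower in High, which turned the sign of 7, and 3 had an unadjusted p under 0.05, FN1 being at -1.06 (SE 0.345, adjusted p = 0.357), COL3A1 at -0.72 (SE 0.322, adjusted p = 0.483) and SPARC at -0.49 (SE 0.206, adjusted p = 0.447). SEs of 0.284 to 0.382 in the first fit limit how small a difference could be seen, and DCN and PDGFRA were too scarce for the test, at 2.04 and 2.01 CPM and at 2.43 and 2.10 CPM on average in High and Low.

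**Figure D5:**
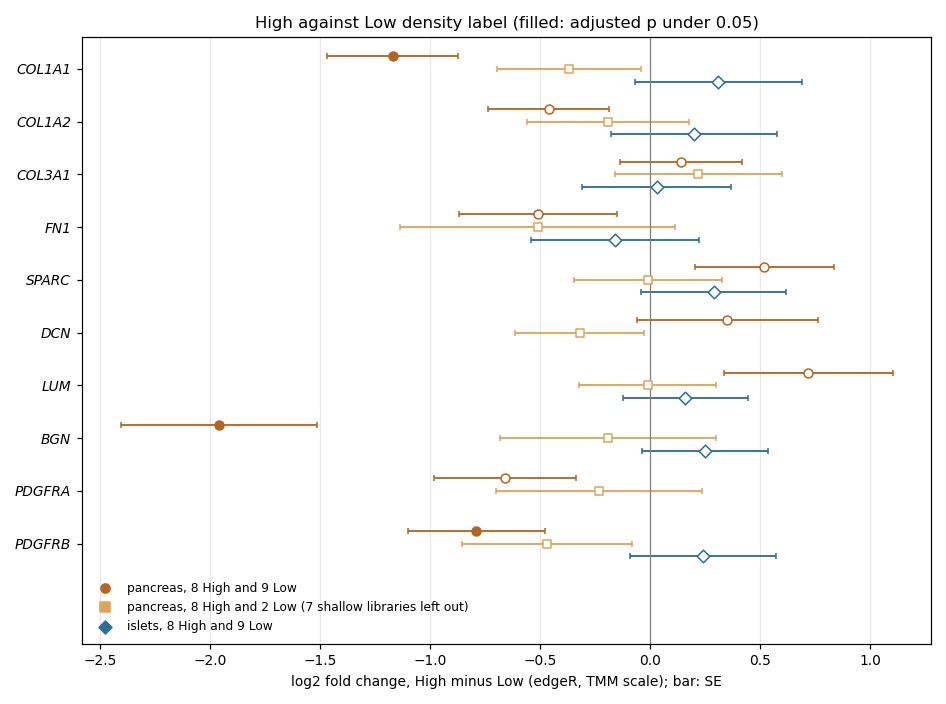
Log2 fold change of High against Low for each gene in pancreas with all libraries, in pancreas without the 7 shallow libraries and in islets, with bars for the SE and filled symbols for an adjusted p under 0.05. The 3 filled symbols, COL1A1, BGN and PDGFRB, all belong to the fit that holds the shallow libraries.

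The difference between the islet and the pancreas density effects was tested directly. It passed for 2 genes, where 39.9% of 14337 genes passed, 22.2% higher and 17.7% lower: BGN at 1.78 (SE 0.501, edgeR adjusted p = 0.00565) and COL1A1 at 1.13 (SE 0.463, adjusted p = 0.0488). Without the shallow libraries 0 of the 10 passed and 0 had an unadjusted p under 0.05 by edgeR, with BGN at 0.38 (adjusted p = 0.844) and COL1A1 at 0.58 (adjusted p = 0.764). With the animal as a block, over the 15 animals labelled in both tissues, BGN stayed at 1.99 (adjusted p = 0.00228), COL1A1 did not pass at 0.56 (adjusted p = 0.305), and DCN at -2.60 (adjusted p = 0.00996) and SPARC at -1.59 (adjusted p = 0.019) did. Low pancreas replicate 9 has no counted islet partner, so that fit kept only Low pancreas replicate 2 beside the 7 shallow Low libraries. In those 7, DCN had 0 to 8 counts and SPARC 1 to 8, so depth and label cannot be told apart here either. COL1A1 also lost its call with any of 24 single libraries left out.

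Across single islet libraries the matrix genes varied severalfold within a label. High islet replicate 4 was the highest of all 18 for COL1A1, COL1A2, COL3A1, FN1 and BGN and, with no more than 25 counts each, DCN and PDGFRA, and High islet replicate 7 the lowest of the 17 labelled libraries for 9 of the 10 genes, all but PDGFRA. High islet replicate 6 was highest for PDGFRB and SPARC and had 0 counts of PDGFRA. In replicate 4 COL1A1 stood at 228 CPM and FN1 at 349 CPM, and in replicate 7 at 22.6 and 37.9 CPM.

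The genes most alike in rank over the 18 islet libraries are given as a description, from 10292 named genes with enough counts, by Spearman's rho on CPM. COL1A2 and COL3A1 were each other's nearest (0.973), and MMP14, a membrane-bound collagenase, came second for both (0.932 and 0.934). COL1A1 was nearest to COL6A3 (0.955) and MMP14 (0.953), FN1 to MMP14 (0.926) and COL3A1 (0.924), and SPARC to COL6A1 (0.94) and PLEKHO2 (0.92). BGN was nearest to COL6A2 (0.856) and COL5A3 (0.835), and PDGFRB to COL6A1 (0.856) and IGFBP4 (0.841). The scarcer genes, whose ranks rest on few counts, had lower values: LUM with DIAPH3 (0.882) and VRK1 (0.876), DCN with SLC35E3 and TRIM2 (0.86 each) and PDGFRA with STAT2 (0.837) and RAB34 (0.829). Without the library that has no density label, the values for the same pairs were 0.801 to 0.968. All points share the library total that enters CPM.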

How the data were processed

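Counts per gene were measured by RNA sequencing in 17 pancreas and 18 islet libraries of pigs, and the authors deposited them as 1 table of whole-number counts per tissue, not normalized. FastQC, Subread, edgeR, HISAT2 2.0.2 and the build susScr3 are named in the submitters' processing notes, without role or order; the strand setting is not given in the sources used here. Pig Ensembl identifiers were paired with symbols from a name table, which matched 14857 of 25880 rows. There was 1 column, in the pancreas table, that matched no listed sample and was not used.

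CPM were taken from column totals. Differences were tested on the counts with edgeR 4.0.16 in R 4.3.3 (filterByExpr, TMM, robust quasi-likelihood fit, two-sided, Benjamini-Hochberg adjusted p of 0.05 over all genes tested), and SE is the log2 fold change over the square root of F. The tissue comparison used all 35 libraries. The comparisons within a density label, and the difference of density differences, came from 1 fit over the 4 labelled groups. Density was compared within each tissue alone. The code was tested on simulated data. Among 128 library pairs within groups 0 held identical values, and a chi-square test of their counts gave at least 3.18 per degree of freedom.

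The 10 genes and all lists were chosen with earlier results of these data known. From each pathway list at most 2 genes each way were named in the tissue comparison and 1 each way in the density comparison, by size among those that passed, and from each marker list the 2 with the highest mean CPM. The animal code, shared by the pancreas and islets of 1 animal, pairs the samples, and its block is an alternative. Other alternatives were scaling, count filter, DESeq2 1.42.0, voom in limma 3.58.1, genes above 5% of a library left out, covariates for animal code and library total, other uses of the density label, each library left out, and the 7 libraries under 1000000 counts left out. For 2 genes that the naming rule picks, values are not reported here. Sequences of the genes are not shown, as no sequence was used here.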

Additional observations from a re-analysis of the deposited data

Results flagged for a closer look

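Each of the 10 genes was examined in each of the 4 labelled groups for a library far from the others. Of these 40 cases 4 stood out. The limits used give about 1 in 20 by chance for independent, normally distributed values. CPM need not be normally distributed and several of these genes vary together, so that rate is only a rough guide. High pancreas replicate 5 had 29.8 CPM of COL1A1 (117 counts), and the next High library had 18.2 CPM. High islet replicate 4 had 152 CPM of COL1A2 (622 counts) beside 78.6 CPM in the next, and 349 CPM of FN1 (1431 counts), also far above the next. Low pancreas replicate 9 had 50.9 CPM of SPARC (96 counts), and the next Low library, a shallow one, had 24.7 CPM.

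The High against Low difference was more positive in islets than in pancreas, by edgeR's test of the difference itself, for COL1A1 at 1.13 (SE 0.463, adjusted p = 0.0488) and for BGN at 1.78 (SE 0.501, adjusted p = 0.00565). COL1A1 averaged 97.7 and 87.0 CPM in High and Low islets and 15.9 and 36.6 CPM in High and Low pancreas, and BGN 10.8 and 9.75 CPM and 4.34 and 17 CPM. Both calls were absent without the 7 shallow pancreas libraries.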

How the results depend on the processing

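In islets against pancreas, 8 to 10 of the 10 genes passed under the 12 other settings and 8 to 9 with any library left out. Of all values of single genes under an alternative, 2174 kept direction and side of the threshold, 78 passed in neither fit and changed sign, 88 no longer passed, 14 passed anew and 4 reversed with a call involved; where a sentence gives no cause, the cause was not tested. In islets against pancreas BGN reversed without the shallow pancreas libraries, to 0.74 in the fit that ignores the label and 0.46 within Low, where genes higher came to 2. In High against Low in pancreas BGN reversed to 0.17 with the log2 library total as covariate. COL3A1 reversed in that density comparison to -0.76 (edgeR adjusted p = 0.0495) among animals with 1 label in both tissues. Every Low pancreas library of that subset is shallow.

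For High against Low in pancreas, genes higher numbered 2 and lower 1 without a count filter. The number called, and the number lower, was 0 without the shallow libraries, with the animal code's first digits as covariate, with the library total as covariate, and by the label of the other tissue. It was 5, all lower, among animals with 1 label in both tissues (COL1A1, COL1A2, COL3A1, PDGFRA and BGN). In that subset every Low pancreas library is shallow and no High one is, so depth and label cannot be told apart there. With 1 library left out genes higher ranged from 0 to 2.

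For the difference of density differences, genes called, all higher, numbered 1 without a count filter and with a 1 CPM filter. Genes called also numbered 1 without genes above 5% of a library, and without High islet replicate 1, whose source name reads pancreas. They numbered 0 by limma-voom and without the shallow libraries, and 1 to 2 with 1 library left out. With the animal as replicate block, a fit that keeps the shallow libraries, 1 was higher and 2 lower. Apart from the values given in the report, the block changed no other call of the 10 genes. Depth limits what can be said of DCN and PDGFRA in islets and of all 10 genes in the shallow libraries.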
